A study of Mus musculus with 2 samples.

Results

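Olig3, Neurog1, Neurog2, Shox2 and Foxb1 are transcription factor genes listed together as fate factors of the lower rhombic lip, and their transcripts were followed here as raw UMIs (unique molecular identifiers, each marking a captured molecule) in the cerebellum of mouse embryos at E16.5. The 5 genes were taken by name from 32285 genes in the count matrices. They were chosen by 2 measured readouts of these libraries, namely the control cell types that use them and their detection together with Wif1 and Lef1 in mutant cells, so values of those readouts describe the choice and test nothing. The control library came from cre-negative embryos. The mutant library came from embryos carrying Blbp-cre, a floxed exon 3 on 1 Ctnnb1 allele, which stabilises beta-catenin once it is removed, and floxed Smarca4, an ATPase of the BAF chromatin remodelling complex, on both alleles. These mutants had cerebellar lesions, and Blbp-cre acts in radial glia and other neural progenitors, so cells outside that lineage should keep their alleles. For each genotype 3 samples were pooled, 40000 cells were loaded and 1 droplet library of transcript 3' ends was made. There was therefore no replicate, no difference was tested, and each 95% interval below is exact for its count (Poisson for CPM, Clopper-Pearson for shares, conditional binomial for ratios) and covers counting error only, not the spread between embryos.

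The rhombic lip is the dorsal rim of the hindbrain neuroepithelium. Its upper portion beside the cerebellum uses Atoh1 and gives granule cells and other glutamatergic cerebellar neurons, whereas the lower portion along the medulla gives precerebellar neurons of the mossy and climbing fibre systems. OLIG3 is a basic helix-loop-helix (bHLH) protein of dorsal hindbrain progenitors, NEUROG1 and NEUROG2 are proneural bHLH proteins that start neuronal differentiation, SHOX2 is a homeodomain protein of hindbrain, midbrain and other neurons, and FOXB1 is a forkhead protein of neural progenitors and of some diencephalic and hindbrain neurons. Wif1, a secreted Wnt inhibitor, and Lef1, a DNA-binding partner of beta-catenin, are targets of canonical Wnt signalling. Hox genes are used in the hindbrain behind its first segment, and En1 and En2 in the midbrain and that first segment, so they served to check the regional label.

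In GRCm38, Olig3 (ENSMUSG00000045591) lies on chromosome 10 from 19356533 to 19358604 on the plus strand with 1 exon. Neurog1 (ENSMUSG00000048904) lies on chromosome 13 from 56250478 to 56252163 on the minus strand with 1 exon. Neurog2 (ENSMUSG00000027967) lies on chromosome 3 from 127633135 to 127635631 on the plus strand with 2 exons. Shox2 (ENSMUSG00000027833) lies on chromosome 3 from 66971727 to 66981771 on the minus strand, with transcripts of 4 to 5 exons. Foxb1 (ENSMUSG00000059246) lies on chromosome 9 from 69757710 to 69760940 on the minus strand with 2 exons. Shox2 overlaps Rsrc1 and Foxb1 overlaps the antisense gene B230323A14Rik, each on the opposite strand. The sources used here do not give whether the counting used strand, so the Shox2 and Foxb1 counts are uncertain to the extent that reads of such a partner could enter them.

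The bases just upstream of 3 of the genes are shown because Neurog1 and Neurog2 encode sister proneural proteins that stood on opposite sides of 1 between the libraries, and because Shox2 held the only match to a TCF/LEF core among the 4 factor promoters found in the RefSeq promoter table (GRCm38.p6; Olig3, Neurog1, Neurog2 and Shox2). Each run is the 250 bases before the RefSeq start, 5′ to 3′ on the gene's strand, at chr13:56252181-56252430 for Neurog1, chr3:127632886-127633135 for Neurog2 and chr3:66981772-66982021 for Shox2. Capitals mark the TCF/LEF match.
Neurog1: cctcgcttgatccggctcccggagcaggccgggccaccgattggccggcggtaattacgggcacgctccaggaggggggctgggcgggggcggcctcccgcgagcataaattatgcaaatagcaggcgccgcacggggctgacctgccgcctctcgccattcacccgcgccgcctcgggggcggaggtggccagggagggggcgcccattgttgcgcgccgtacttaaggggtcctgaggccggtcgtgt
Neurog2: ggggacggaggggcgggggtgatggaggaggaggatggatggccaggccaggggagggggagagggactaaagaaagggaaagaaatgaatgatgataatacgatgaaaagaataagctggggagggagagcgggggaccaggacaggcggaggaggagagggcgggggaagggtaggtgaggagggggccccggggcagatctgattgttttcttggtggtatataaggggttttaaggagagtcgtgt
Shox2: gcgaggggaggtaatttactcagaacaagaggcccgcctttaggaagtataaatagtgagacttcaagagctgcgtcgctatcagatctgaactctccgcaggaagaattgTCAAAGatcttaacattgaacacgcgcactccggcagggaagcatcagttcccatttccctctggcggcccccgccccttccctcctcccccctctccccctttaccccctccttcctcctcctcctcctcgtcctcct

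The 4 windows were searched on both strands for CTTTGA, the core bound by TCF and LEF proteins, and for CAGATG, an E-box form used by neurogenins; neither motif contains the other. The Shox2 window held the TCF/LEF core on its opposite strand, 139 to 134 bases upstream of the start, and the other 3 windows held none. No window held CAGATG. Among 32851 promoter windows of the same length 13.8% held the first motif and 14.4% the second, so these matches describe the letters of the windows and nothing about binding. The GC content was 71.2% for Neurog1, 58.0% for Neurog2, 55.6% for Shox2 and 51.6% for Olig3.

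After filtering, 15793 control cells with a median of 9963 UMIs and 15584 mutant cells with a median of 9641 UMIs were kept. Shares of cells were read after each cell was thinned to 3000 UMIs, which left 13411 control and 13578 mutant cells and left out 2382 and 2006 shallower ones. Between the libraries 61 kept cells shared a barcode sequence. Smarca4 was at 67.9 CPM in the control and 49.2 CPM in the mutant library and Ctnnb1 at 118 and 172 CPM; 3' counts may lie outside the deleted exons, so these levels check neither label. Haemoglobin transcripts made up 7.57% of the control and 8.86% of the mutant UMIs. Cells of both libraries were clustered together without the 5 factors and without the Wnt, neurogenin cascade, Hox, isthmus and midbrain genes. Of the resulting clusters 7 were at least 5 times as large a share of the mutant as of the control library (numbers 19, 20, 23, 26, 27, 29 and 30); they held 56.4% of mutant and 3.01% of control cells, and a cluster of this kind may stand for its library and not for a cell type.

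Of the 5 factors 4 were more abundant in the mutant library, and Neurog1 was less abundant. Over all kept cells Neurog2 was at 7.66 CPM (the gene's UMIs scaled to a fixed total per library; 7.25 to 8.08) in the control and 77.3 CPM (76.0 to 78.6) in the mutant library, a mutant to control ratio of 10.1 (9.54 to 10.7). Shox2 was at 6.36 CPM (5.99 to 6.75) and 69.8 CPM (68.5 to 71.1), a ratio of 11.0 (10.3 to 11.7). Olig3 was at 2.19 CPM (1.97 to 2.42) and 14.9 CPM (14.3 to 15.5), a ratio of 6.80 (6.10 to 7.59). The counting intervals of these 3 genes lay far apart in the 2 libraries. Foxb1 was at 5.80 CPM (5.45 to 6.17) and 29 CPM (28.2 to 29.8), a ratio of 4.998 (4.67 to 5.35). Neurog1, the least abundant, was at 1.16 CPM (1.003 to 1.33) in the control and 0.702 CPM (0.581 to 0.841) in the mutant library, a ratio of 0.606 (0.479 to 0.765) that rests on 200 and 118 UMIs. Of the 200 control Neurog1 UMIs 125 lay in cluster 13, described below, which held 909 control and 16 mutant cells. The part of that cluster in the direction of the Neurog1 ratio was not tested. In these sums over a library a larger number of cells with a factor and more of its RNA per cell cannot be told apart.

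**Figure D1:**
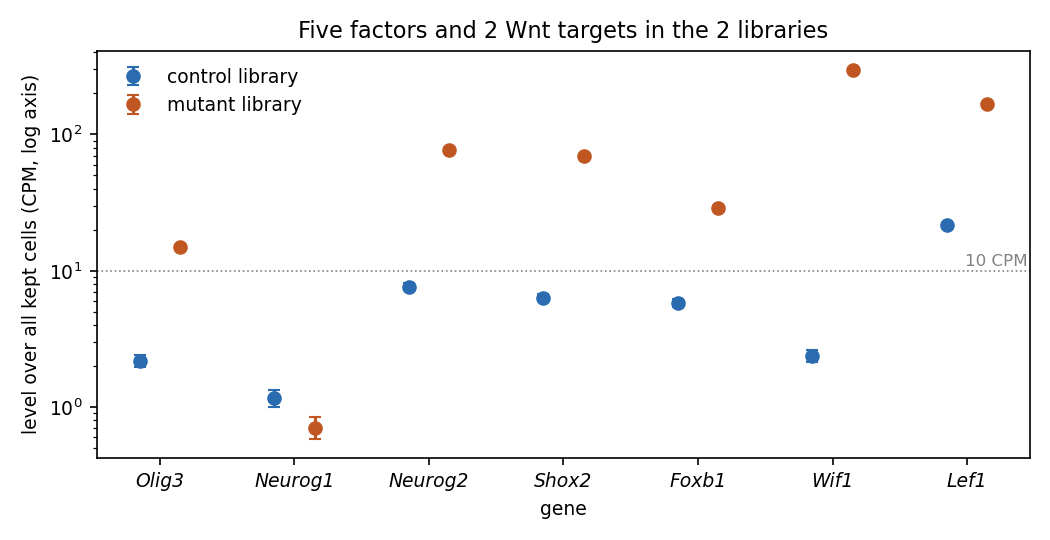
Level of the 5 factors and of Wif1 and Lef1 over all kept cells of the control (blue) and mutant (orange) library, in CPM on a log axis; bars are exact Poisson 95% intervals and the dotted line is the 10 CPM entry level. Olig3, Neurog2, Shox2 and Foxb1 lie below the line in the control and above it in the mutant library, and Neurog1 lies below it in both.

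A comparison over all genes took those at 10 CPM or more in either library and called a gene higher at 2-fold on CPM plus 1, by size alone. Of 9789 genes 4.19% were higher in the mutant library and 2.06% lower. Shox2 ranked 18, Neurog2 22, Olig3 79 and Foxb1 106 by log2 ratio (3.26, 3.18, 2.32 and 2.14), and Wif1 ranked 1 at 6.47. All 4 factors were under 10 CPM in the control library and so entered only through the mutant one, where they had to be high; nothing is read from their count against the background. Neurog1 did not enter.

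At equal depth a UMI of each factor except Neurog1 was found in more mutant than control cells. Neurog2 was detected in 1.73% of thinned control cells (1.52 to 1.97) and 11.1% of mutant cells (10.6 to 11.7), against 3.34% and 18.6% without thinning. Shox2 was detected in 1.29% (1.11 to 1.496) and 12.3% (11.8 to 12.9), Foxb1 in 1.63% (1.43 to 1.86) and 7.42% (6.99 to 7.88), and Olig3 in 0.552% (0.434 to 0.692) and 3.51% (3.20 to 3.83). Neurog1 was detected in 0.373% (0.277 to 0.491) and 0.221% (0.149 to 0.315). At least 1 of the 5 factors was thus found in 5.35% of the control and 28.1% of the mutant cells. The highest count in a cell before thinning was 95 UMIs for Neurog2 and 36 for Shox2 in the mutant library, against 17 for each in the control library.

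Cells not known to use these genes also held UMIs of them. Erythroid-like cells, which are not known to use neural factors, had a Neurog2 UMI in 0.272% of the 368 from control embryos (1 cell) and 3.73% of the 482 from mutants (18 cells; 2.23 to 5.84), with medians of 20923 and 20093 UMIs before thinning. In the mutant library their shares were 2.49% for Shox2, 1.87% for Foxb1 and 1.24% for Olig3, and Neurog1 was found in 0 of 482 cells, which allows a share of up to 0.622%. Over all non-neural classes together (erythroid-, microglia-, endothelial-, mural- and fibroblast-like) the mutant shares were 2.54% for Neurog2, 1.41% for Shox2, 0.987% for Foxb1 and 0.564% for Olig3, each below the share over all mutant cells. A low share of a factor in a mutant cluster is therefore read below against these values. Before thinning the shares in mutant erythroid-like cells were 10.8% for Neurog2, 8.28% for Shox2, 8.07% for Foxb1 and 4.35% for Olig3. Thinning takes more UMIs from these deep cells than from most others, so this reference depends on depth.

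The factors lay in different control clusters, except for the neurogenins. Olig3 was spread thinly. Of its 378 control UMIs 26.2% lay in cluster 15 and 21.2% in cluster 5, which stayed unnamed and were led by Nts, Barx2 and Neurod4, at 6.53 and 6.08 CPM. These cells also carried Atoh1 (118 and 94.4 CPM), the bHLH gene of upper rhombic lip progenitors, Eomes (116 and 115 CPM), a marker of unipolar brush cells, and Otx2 (384 and 290 CPM). The 2 clusters differed in genes of dividing cells, with Mki67 at 285 and 40.0 CPM and Top2a at 855 and 74.5 CPM. A further 15.1% of the Olig3 UMIs lay in cluster 12, Hox-positive hindbrain neuron-like in the control library, which at 19.4 CPM had the highest Olig3 level among the control clusters and made up 1.75% of control cells. Unipolar brush cell-like cells (cluster 2) held 10.3% of its UMIs at 3.11 CPM.

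The 2 neurogenins were used together in the control. Cluster 13 held 69.3% of the Neurog2 UMIs at 104 CPM and 62.5% of the Neurog1 UMIs at 14.2 CPM. It is left unnamed, since its 10 leading genes held as many markers of PAX2-type GABAergic interneurons (Pax2, Lhx5 and Slc32a1) as of PTF1A-lineage GABAergic progenitors (Ptf1a, Kirrel2 and Lhx5). Ptf1a, the bHLH gene of cerebellar GABAergic progenitors, was at 66.1 CPM in it and Kirrel2, which marks them, at 57.8 CPM. Clustering at resolution 2 split it by these classes. The PTF1A-lineage GABAergic progenitor-like piece, with 402 control cells, held 58.3% of the Neurog2 and 47.0% of the Neurog1 UMIs, and the PAX2-type interneuron-like piece, with 514 control cells, held 11.6% and 15.5%. Cluster 17 came next with 7.03% of the Neurog2 and 18.0% of the Neurog1 UMIs. In cells, Neurog2 was found in 12 of 50 Neurog1-positive control cells (24.0%, 13.1 to 38.2) and in 1.65% of the others. Only 16 mutant cells fell into cluster 13, fewer than the 50 needed for a comparison.

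Shox2 sat in few control cells. Cluster 17, 1.45% of control cells, held 58.1% of its UMIs at 312 CPM. This unnamed cluster carried Slc17a6 (195 CPM), a vesicular glutamate transporter gene, with Lhx9 (703 CPM), Pou4f1 (63.1 CPM), Tfap2d (291 CPM), En1 (284 CPM) and En2 (222 CPM), with the 12 Hox genes together at 11.7 CPM; its markers were split between midbrain glutamatergic neurons and cerebellar glutamatergic nuclei. Cluster 20 held another 15.7% at 173 CPM in 118 control cells and was led by Ndst4, Cntn4 and Tfap2d, with Tfap2d, a transcription factor gene of the midbrain, at 621 CPM and the Hox genes at 3.01 CPM.

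Foxb1 lay mainly in progenitor-like cells. Cluster 1, neural progenitor- or astroglia-like, held 63.2% of its control UMIs at 46.6 CPM, and cluster 9 of the same name held 16.1% at 16.9 CPM. Cluster 1 carried Nkx6-2 (112 CPM) and Dbx2 (130 CPM), homeodomain genes of ventral and intermediate neural progenitors, and Aqp4 (314 CPM), an astroglial water channel. Cluster 9 had 0.946 and 2.21 CPM of the first 2.

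**Figure D2:**
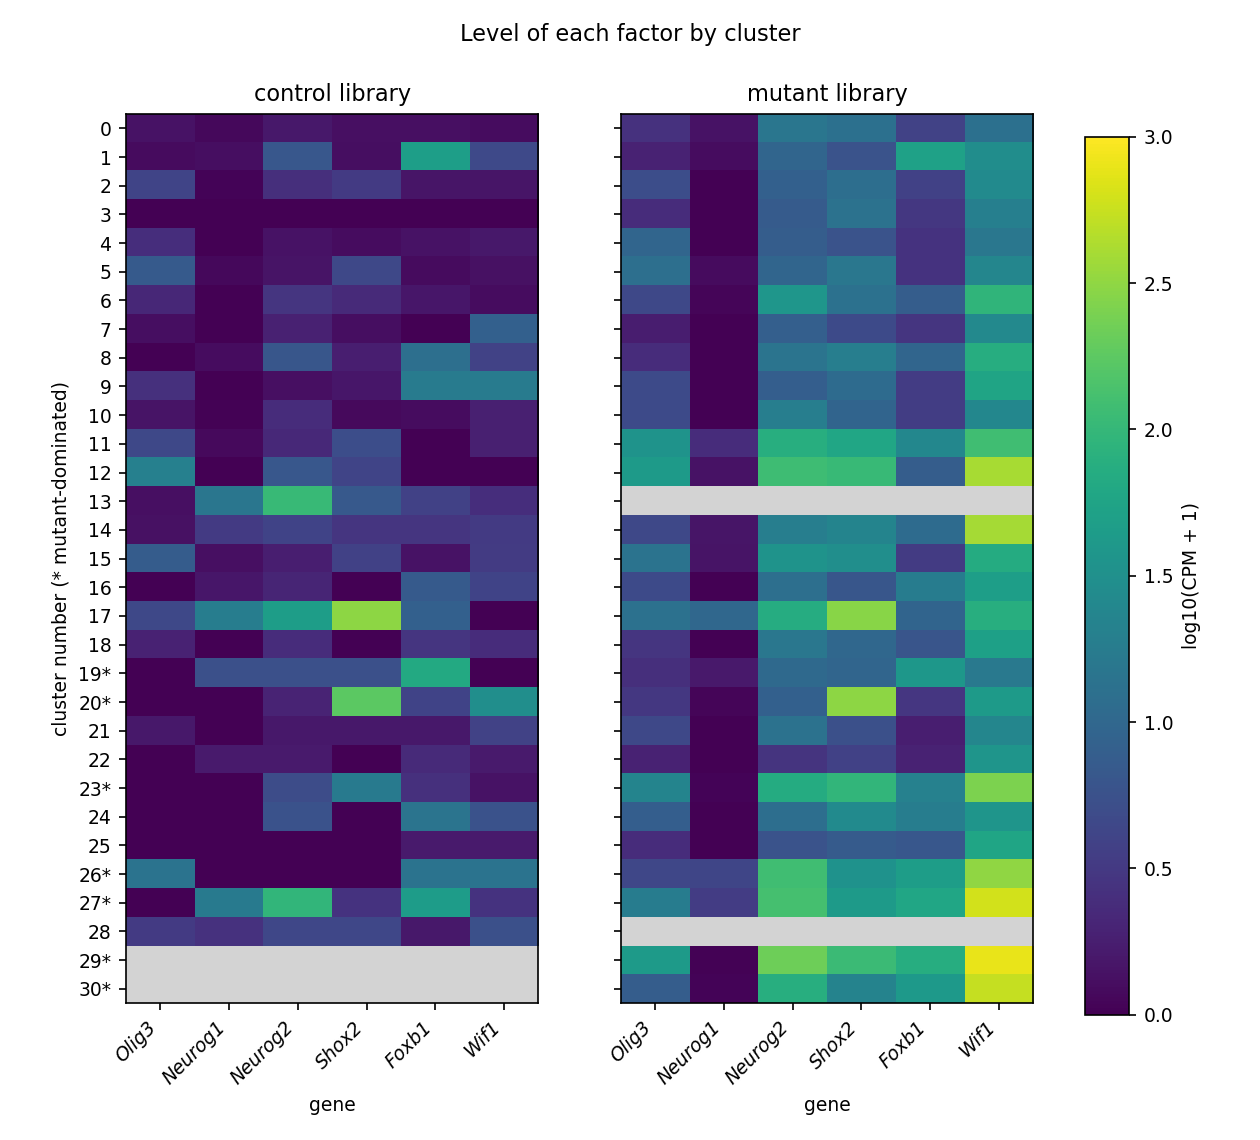
Level of the 5 factors and Wif1 in each cluster with at least 20 cells, as log10(CPM + 1), in the control (left) and mutant (right) library; asterisks mark mutant-dominated clusters and grey rows have fewer cells. Control signal sits mainly in a few rows (clusters 13, 17 and 27 for the neurogenins, 17 and 20 for Shox2, 1, 9 and 27 for Foxb1). In the mutant library Neurog2 and Shox2 appear at a low level in nearly every row.

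In the mutant library the main place of 3 factors was cluster 29, with 3076 mutant cells and 1 control cell, led by Pycr1, Cdkn1a and Twist2 and including Wif1 and Notum, a Wnt-induced secreted deacylase, among its 10 leading genes. It was 19.7% of mutant cells and held 50.3% of the Olig3 UMIs at 42.1 CPM, 49.8% of the Neurog2 UMIs at 216 CPM and 45.1% of the Foxb1 UMIs at 73.4 CPM. It held 27.7% of the Shox2 UMIs at 109 CPM. Of 118 mutant Neurog1 UMIs it held 1. In thinned cells of this cluster Neurog2 was found in 25.7%, Shox2 in 18.1%, Foxb1 in 17.4% and Olig3 in 8.50%, each well over the thinned shares in erythroid-like cells. Its levels of Atoh1 (19.8 CPM) and Ptf1a (3.31 CPM), which mark the rhombic lip and the GABAergic ventricular zone, were low beside those of the control clusters named above.

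Outside cluster 29 the factors were spread differently. All 7 mutant-dominated clusters together held 85.1% of the Foxb1, 83.0% of the Neurog2, 75.0% of the Shox2, 74.5% of the Olig3 and 46.6% of the Neurog1 UMIs of the mutant library. Shox2 had as much in cluster 20 (27.9%, 306 CPM) as in cluster 29, and another 13.3% in cluster 17 (290 CPM). Neurog1 lay in cluster 17 (41.5%, 9.12 CPM), in cluster 26, which stayed unnamed (22.9%, 3.28 CPM), and in cluster 27, led by the cell division genes Ccnb2 and Kif20a among others (18.6%, 2.38 CPM). Neurog2 in cluster 27 was at 129 CPM and in cluster 26 at 120 CPM. Foxb1 in clusters 27, 26 and 30 was at 59.3, 45.4 and 41.4 CPM. These levels were not all particular to the mutant library. The 40 control cells of cluster 27 had Neurog2 at 92.8 CPM, Foxb1 at 44.6 CPM and Neurog1 at 16.1 CPM, from 52, 25 and 9 UMIs.

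Within clusters that held at least 50 cells of each library, 24 in all, a factor could be compared between the libraries. The interval of the mutant to control ratio lay above 1 in 22 clusters for Shox2, 21 for Neurog2, 13 for Olig3, 13 for Foxb1 and 0 for Neurog1. These counts include non-neural clusters, 6 of the 24: 5 of them for Shox2, 4 for Neurog2, 3 for Foxb1 and 1 for Olig3. In erythroid-like cells alone the ratio was 19.6 for Neurog2 (11.7 to 35.4), so that a ratio of this size was also seen where no use of the gene is known. The 359 Neurog2 UMIs of mutant erythroid-like cells lay in 10.8% of 483 cells before thinning, and the 7 of microglia-like cells in 4.26% of 141. Neither the source of these UMIs, free RNA or another, nor its part in the other ratios was tested.

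Most of the clusters that held a factor in the control gave small ratios. Shox2 in cluster 17 was at 312 CPM in the control and 290 CPM in the mutant library, a ratio of 0.929 (0.846 to 1.02), while that cluster was 1.45% of control and 3.47% of mutant cells. Foxb1 in cluster 1 was at 46.6 and 50.4 CPM, a ratio of 1.081 (0.949 to 1.23). Neurog2 in cluster 17 was at 45.5 and 70.2 CPM, a ratio of 1.54 (1.23 to 1.96), and Neurog1 there was at 17.6 and 9.12 CPM, a ratio of 0.518 (0.330 to 0.820). Of the neurogenins there Neurog2 was thus higher and Neurog1 lower in the mutant library. Olig3 was at 6.53 and 12.8 CPM in cluster 15 and at 6.08 and 11.3 CPM in cluster 5, ratios of 1.97 (1.46 to 2.64) and 1.86 (1.29 to 2.67). Shox2 in cluster 20 was at 173 and 306 CPM, a ratio of 1.77 (1.52 to 2.08). These 7 levels differed by less than 2-fold between the libraries. Of the other clusters named above for a factor in the control, those that differed by more were cluster 9 for Foxb1, at 16.9 and 2.44 CPM, a ratio of 0.144 (0.0522 to 0.321), and cluster 12 for Olig3, at 19.4 and 41.8 CPM, a ratio of 2.15 (1.59 to 2.94). Cluster 9 also differed in Otx2, at 22.6 and 102 CPM. Cluster 13, the main control place of both neurogenins, held too few mutant cells to be compared. Without the mutant-dominated clusters, an alternative chosen after seeing the data, the whole-library ratio was 7.13 for Shox2, 3.77 for Neurog2, 3.64 for Olig3 and 1.64 for Foxb1.

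Cluster 12 held different cells in the libraries. Its 277 control cells had the 12 Hox genes at 938 CPM together, Otx2 at 8.18 CPM and Wif1 at 0 UMIs. Its 408 mutant cells had the Hox genes at 25.3 CPM, Otx2 at 251 CPM, Atoh1 at 169 CPM and Wif1 at 401 CPM, so the hindbrain name does not hold for them. Olig3 was at 19.4 CPM in the first and 41.8 CPM in the second, and Neurog2 at 5.46 and 116 CPM.

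Wif1 was found in 31.1% and Lef1 in 29.3% of thinned mutant cells, against 0.716% and 5.95% in the control, so the mutant library offered many cells for co-detection. Of 1510 Neurog2-positive mutant cells 59.4% had Wif1 (56.9 to 61.9), against 27.6% of cells without Neurog2. Foxb1-positive cells had Wif1 in 52.1% (48.9 to 55.2) against 29.4%. For Olig3 the shares were 46.0% (41.5 to 50.6) against 30.6%. Cells with any of these 3 factors thus had Wif1 more often than cells without that factor. Shox2 stood close to even, with Wif1 in 33.9% of 1675 positive cells (31.6 to 36.2) against 30.7%, and in the mutant-dominated clusters alone, an alternative chosen after seeing the data, the ratio of these shares turned from 1.10 to 0.797. Of 30 Neurog1-positive cells 26.7% had Wif1 (12.3 to 45.9) against 31.1%. The interval for Neurog1 spans values above and below that of the other cells.

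With Lef1 the Foxb1-positive cells had the highest share. It was found in 50.7% of Foxb1-positive cells (47.6 to 53.8) against 27.5%, in 48.3% of Neurog2-positive cells (45.7 to 50.8) against 26.9% and in 38.0% of Olig3-positive cells (33.6 to 42.6) against 28.9%. Shox2-positive cells had Lef1 in 30.0% (27.8 to 32.2) against 29.2%, and Neurog1-positive cells in 33.3% (17.3 to 52.8) against 29.3%. In the control library Wif1 was found with a factor in 1 cell, a Shox2-positive one of 173. It was found in 0 of 232 Neurog2-positive cells, which allows a share of up to 1.29%, and in 0 of 219 Foxb1-positive, 0 of 74 Olig3-positive and 0 of 50 Neurog1-positive cells, which allow up to 1.37%, 4.05% and 6.0%. Control Lef1 was found in 11.6% of Shox2-positive cells (7.21 to 17.3) and in 1.29% of Neurog2-positive cells (0.267 to 3.73), against 5.88% and 6.03% of the cells without them.

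**Figure D3:**
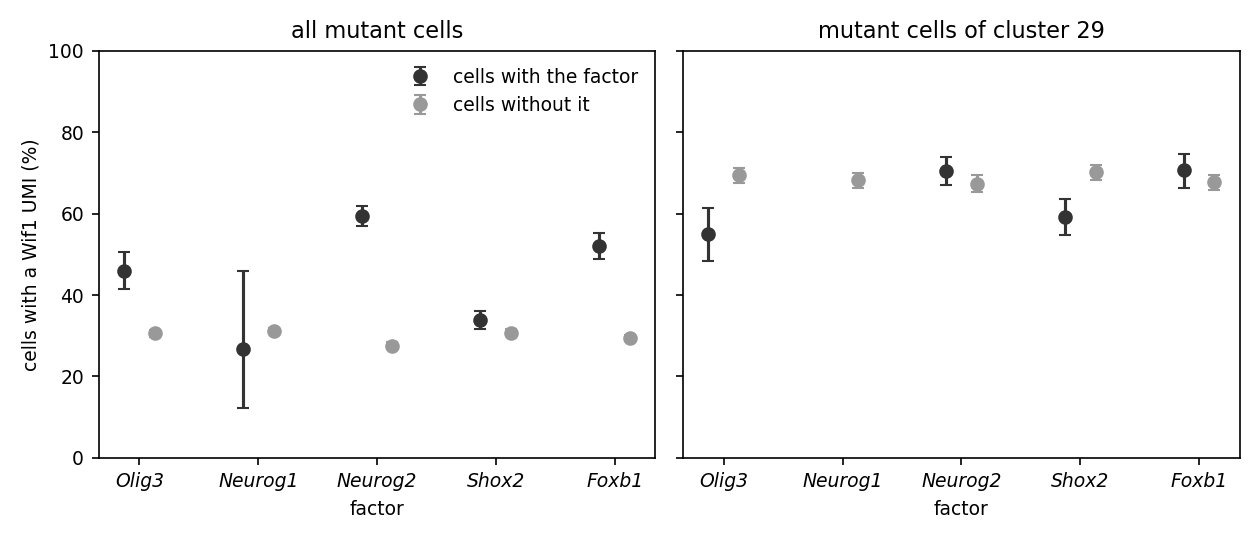
Percent of thinned mutant cells with a Wif1 UMI among cells with (dark) and without (grey) each factor, over all mutant cells (left) and in cluster 29 (right); bars are exact binomial 95% intervals. Neurog2-, Foxb1- and Olig3-positive cells stand above the others on the left, whereas in cluster 29 Neurog2 and Foxb1 stand near the others and Olig3 and Shox2 below; Neurog1 has no positive cell there among thinned cells.

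Across all genes found in at least 1% of thinned mutant cells, 229 of 12298, or 1.86%, were detected at least 2-fold more often with Wif1 than without it, and 1.44% with Lef1 than without it. The ratio for Neurog2 was 3.24 by Wif1 (rank 40) and 2.26 by Lef1, and that for Foxb1 2.41 (rank 116) and 2.49. Olig3 had 1.89 and 1.48, and Shox2 1.13 and 1.03, near the medians over all genes of 1.04 and 1.05. Neurog1 was too rare to enter. The choice of the genes used this contrast, so nothing is read from these ranks.

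The co-detection depended on which clusters were looked at. Within cluster 29, where 68.2% of cells had Wif1, Neurog2-positive cells had it in 70.5% (67.0 to 73.8) against 67.4%, and Foxb1-positive cells in 70.6% (66.3 to 74.7) against 67.6%. Olig3-positive cells there had Wif1 in 54.9% (48.3 to 61.4) against 69.4%, and Shox2-positive cells in 59.1% (54.7 to 63.5) against 70.2%. Within this cluster Olig3 and Shox2 were thus found less often in cells with Wif1 than in cells without it, whereas Olig3 over the whole library was found more often with it. In cluster 20, the other main place of Shox2, Wif1 was found in 5.29% of 416 Shox2-positive cells and 10.1% of the others. In cluster 30 Neurog2-positive cells had Wif1 in 66.4% (57.6 to 74.4) against 52.6%, and in cluster 23 in 44.6% (35.2 to 54.3) against 28.2%. Outside the mutant-dominated clusters Wif1 was found in 38.1% of Neurog2-positive cells (32.4 to 44.0) against 9.84%, and in 21.3% of Shox2-positive cells (17.4 to 25.5) against 10.4%. Wif1 itself was found in 14.3% of mutant erythroid-like cells, and the part of free RNA or of another source in these pairs was not tested.

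Taken by the number of Wif1 UMIs in the thinned cell, Neurog2 detection went from 6.55% at 0 to 15.6% at 1, 22.7% at 2, 24.3% at 3 to 4 and 25.6% at 5 or more (22.8 to 28.6). Foxb1 went from 5.16% at 0 to 13.2% at 2 and 13.4% at 5 or more (11.3 to 15.8). Olig3 was highest in between, at 2.75% with 0, 6.61% with 3 to 4 and 3.55% with 5 or more Wif1 UMIs (2.44 to 4.97). Shox2 went from 11.8% at 0 (11.2 to 12.5) to 15.7% at 1 (13.9 to 17.7), 13.3% at 2 and at 3 to 4, and 9.87% at 5 or more (8.0 to 12), so it was highest at 1 UMI. Neurog1 was at 0.235% with 0, 0.195% with 3 to 4 and, with 5 or more Wif1 UMIs, 0 of 902 cells, which allows a share of up to 0.333%. The steps were thus steepest for Neurog2 at low counts and level after 2 UMIs. By Lef1 UMIs, Neurog2 was at 8.13% with 0, 21.6% with 2 and 14.6% (9.98 to 20.3) with 5 or more, and Foxb1 at 5.17%, 14.6% and 16.6% (11.7 to 22.5).

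**Figure D4:**
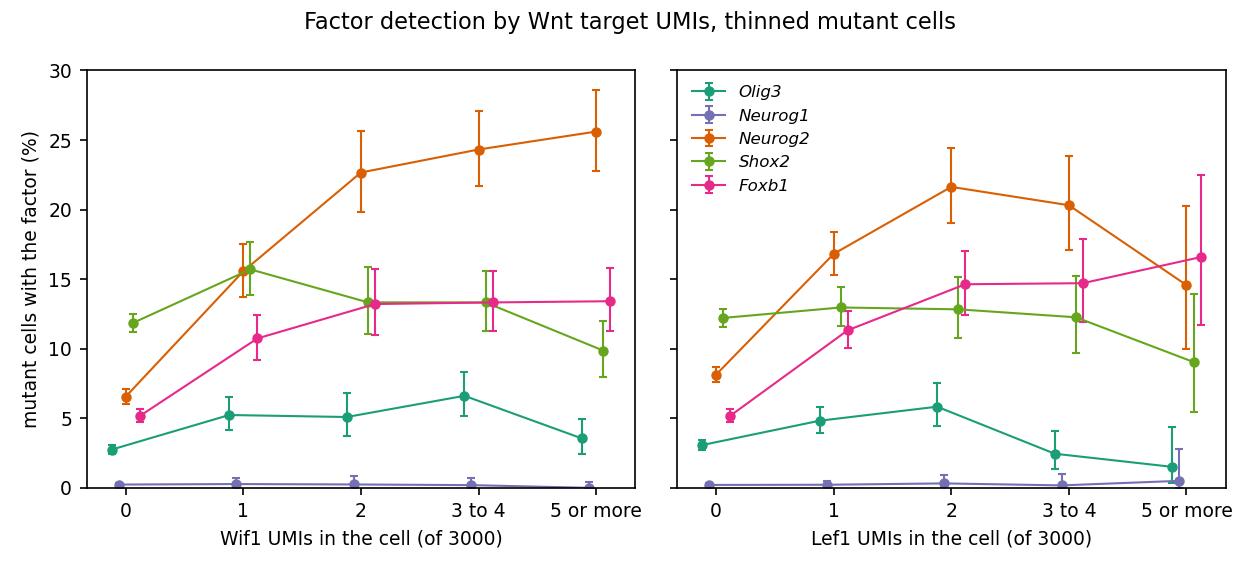
Percent of thinned mutant cells in which each factor was found, by the number of Wif1 (left) or Lef1 (right) UMIs in the cell; bars are exact binomial 95% intervals. Neurog2 and Foxb1 stand higher in cells with Wif1 than in those without, Shox2 is highest at 1 Wif1 UMI (15.7%) and lowest at 5 or more (9.87%), Olig3 is highest at intermediate counts and Neurog1 stays lowest in every bin.

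The 8 other Wnt targets (Axin2, Nkd1, Notum, Sp5, Apcdd1, Rnf43, Znrf3 and Tcf7), which the choice of the factors did not name, were summed in the same cells. Per 1000 thinned mutant cells they had 6611 UMIs in Foxb1-positive cells (6453 to 6772) against 3326 in the others, 6090.1 in Neurog2-positive cells (5966 to 6216) against 3255, and 4943 in Olig3-positive cells (4746 to 5147) against 3520.4. Shox2-positive cells had 3291 (3204 to 3379) against 3609.6, and Neurog1-positive cells 2467 (1937 to 3097) against 3573. In the control library the factor-positive cells had 540.0 to 1162 such UMIs per 1000 cells, with Olig3-positive cells the highest, against 950.2 to 957.1 in cells without each factor. Nkd1, an intracellular Wnt inhibitor, gave the most of the mutant sum for each factor, with 3005 UMIs per 1000 Neurog2-positive and 2721 per 1000 Olig3-positive cells. In Olig3-positive cells Nkd1, at 2721 against 1428 UMIs per 1000 cells, made up most of the difference in the sum, with Axin2 at 555 against 339 and Sp5 at 609 against 447. The other 5 targets had lower values in Olig3-positive cells. Notum was at 116 against 195, Znrf3, a membrane ubiquitin ligase, at 557 against 657, Apcdd1 at 330 against 368, Rnf43 at 39.9 against 63.2 and Tcf7 at 16.8 against 23.6. In Foxb1-positive cells Notum was at 367 against 178 and Znrf3 at 1144 against 614. Cells of 1 library share its free RNA and its embryos, so these sums have no spread between animals behind them. The 8 genes are targets of the same pathway as Wif1 and Lef1, so their sums are not independent of the choice and test nothing. They were taken over each whole library and not within clusters.

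Exactly 2 factors were found in 0.231% of control and 4.71% of mutant cells, and any factor in 5.35% and 28.1%. Pairs were thus more frequent where single factors were. A Neurog2 UMI was found in 33.0% of Olig3-positive mutant cells (28.8 to 37.4) and 10.3% of the others, and a Shox2 UMI in 27.7% (23.8 to 32.0) and 11.8%. In the control library Olig3 and Neurog2 were found together in 0 of 74 Olig3-positive cells, which allows a share of up to 4.05%. The other control cells had Neurog2 in 1.74%, which lies within that limit. Neurog1-positive cells had Neurog2 in 24.0% against 1.65% in the control and 30.0% against 11.1% in the mutant library. For Shox2 in Neurog2-positive cells the shares were 3.88% against 1.24% and 20.8% against 11.3%. Within cluster 29 Neurog2 was found in 43.0% of Olig3-positive cells (36.6 to 49.6) against 24.1%, and Shox2 in 31.5% (25.6 to 37.8) against 16.8%. Pairs with Olig3 were thus more frequent within that cluster too. Foxb1 there was found in 16.3% of Neurog2-positive cells (13.7 to 19.2) against 17.7%, a difference within the counting interval. At least 3 factors were found in 118 mutant cells (0.869%), of which 62.7% lay in cluster 29, and in 0 of 13411 control cells, which allows a share of up to 0.0224%. Wif1 was found in 25.8% of mutant cells with no factor, 41.5% with 1, 56.9% with 2 and 60.2% with at least 3. For Lef1 these shares were 25.1%, 37.8%, 49.1% and 40.7%, so Lef1 did not keep rising. The share of these cells in cluster 29 was 13.8%, 32.2%, 55.8% and 62.7%, and its part in the Wif1 shares was not tested.

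By Hox transcripts, Olig3 was the only factor whose interval in the control lay above the share of cells with no factor. In the control library a UMI of the 12 Hox genes was found in 23.0% of Olig3-positive cells (14.0 to 34.2) but in 7.76% of Foxb1- (4.59 to 12.1), 4.74% of Neurog2-, 3.47% of Shox2- and 2.0% of Neurog1-positive cells, against 5.66% of cells with no factor. Of the 17 Olig3-positive control cells with a Hox UMI, 10 lay in cluster 12. En1 or En2 was found in 63.6% of Shox2-positive control cells (55.9 to 70.8) against 18.8% of cells with no factor. Otx2 was found in 35.1% of the Olig3-positive control cells (24.4 to 47.1) against 20.4% of those with no factor. Most control cells with a factor thus had no Hox UMI at this depth. In cluster 12 83.2% of the control cells had one, but that cluster was named by its Hox genes, so its share is no gauge for other cells. The genes are called here by their names and not by a lower rhombic lip origin.

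In the mutant library a Hox UMI was found in 4.20% of Olig3- (2.59 to 6.41), 3.05% of Neurog2-, 2.68% of Foxb1- and 1.73% of Shox2-positive cells, against 2.92% of cells with no factor, and in 2 of 30 Neurog1-positive cells. En1 or En2 was found in 39.7% of Shox2-positive mutant cells (37.3 to 42.1), 25% of Neurog2-positive (22.9 to 27.3) and 24.2% of Olig3-positive cells (20.4 to 28.3), against 23.4% of cells with no factor, so that the Neurog2 and Olig3 intervals held the share of the other cells. In the control library 5.41% of Olig3-positive cells had one (1.49 to 13.3). Within cluster 29 the Hox share was 2.69% in cells with a factor and 2.74% in cells with none, and the En share 24.3% and 29.8%. Of the 12 Hox genes none reached 10 CPM in either library.

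**Figure D5:**
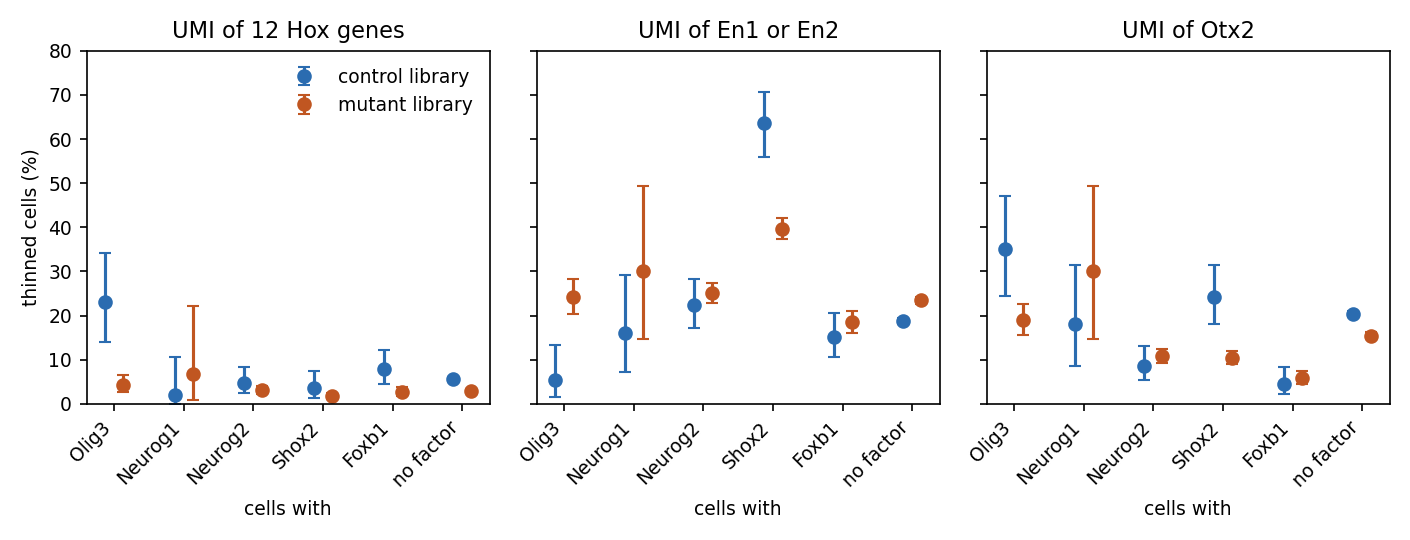
Percent of thinned cells with a UMI of the 12 Hox genes, of En1 or En2, or of Otx2 among cells with each factor and cells with none, in the control (blue) and mutant (orange) library; bars are exact binomial 95% intervals. Control Olig3-positive cells stand out for Hox and Otx2 and control Shox2-positive cells for En1 or En2, and the highest mutant share for Hox is 6.67%, in Neurog1-positive cells.

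Transcripts of dividing cells were found in a smaller share of factor-positive cells in the mutant library, and also of all its cells. A UMI of Mki67 or Top2a, genes of dividing cells, was found in 37.5% of Neurog2-positive control cells (31.3 to 44.1) and 12.6% of Neurog2-positive mutant cells (11.0 to 14.4). For Olig3 the shares were 28.4% (18.5 to 40.1) and 13.9% (10.9 to 17.3), for Foxb1 21.9% (16.6 to 28.0) and 13.9% (11.8 to 16.2), and for Shox2 13.3% (8.62 to 19.3) and 8.48% (7.19 to 9.92). Over all thinned cells they were 25.6% and 14.6%. In cluster 29 the share was 5.34% in Neurog2-positive cells.

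The balance of progenitor transcripts (Sox2, Fabp7, Hes5 and Nes) and neuron transcripts (Tubb3, Dcx, Stmn2 and Elavl3) differed between the factors. Per thinned cell, Foxb1-positive control cells had 48.6 progenitor and 0.671 neuron UMIs, and mutant ones 12.4 and 4.46. Neurog2-positive cells had 7.59 and 4.76 UMIs in the control and 4.28 and 5.77 in the mutant library, and Shox2-positive cells 1.80 and 14.6, then 2.82 and 11.4. Foxb1-positive cells as a group thus had almost no neuron transcripts in the control and both kinds in the mutant library. The 480 of 1008 mutant ones that lay in cluster 29 had 1.53 progenitor and 5.94 neuron UMIs. The mean over all mutant ones therefore does not describe each cell. Cells of the mutant-dominated clusters with at least 5 of these UMIs were then ordered by the neuron share of them. Neurog2 was found in 9.49% of cells under 20%, in 26.6% from 20% to 40% and in 26.8% from 40% to 60%. It was found in 23.6% from 60% to 80% and in 14.2% from 80% to 100%. Shox2 was found in 4.08%, 14.4%, 15%, 18.2% and 25.4% in the same bins and was highest in the most neuronal one. Wif1 was found in 31.4%, 58.2%, 53.3%, 55.1% and 39.0%.

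Among the listed genes of the neurogenin cascade more were lower than higher in the mutant library. Of 27 genes of the neurogenin cascade and its Notch partners 24 entered the comparison between libraries; 3 were higher and 12 lower in the mutant library, against 4.19% and 2.06% of all genes, and the median log2 ratio was -0.83 against 0.03 over all genes. Neurod4, 1 of the lower genes, entered only through the control library. The list was chosen with earlier results of these data known, so nothing is read from its counts against those of all genes. Nhlh2 and Neurod1, bHLH genes downstream of proneural factors, were at 69.1 and 408 CPM in the control and 16.2 and 125 CPM in the mutant library, log2 ratios of -2.03 and -1.70. Insm1, a zinc finger gene of newborn neurons, was at 143 and 53.9 CPM (-1.39). Id4, an inhibitor of bHLH proteins, was higher, at 32.4 and 83.9 CPM (1.35). Neurod1, Neurod2, Nhlh2, Insm1 and Eomes are also used by granule and unipolar brush cells, and the control and mutant libraries held 9.11% and 2.87% unipolar brush cell-like and 9.06% and 1.42% differentiating granule neuron-like cells; the part of these shares in the differences was not tested.

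Of 26 genes of rhombic lip and dorsal hindbrain fate 17 entered, 7 higher and 4 lower, with a median of 0.11. In this and the next 3 lists Pou4f1, Msx2, Gbx2, Tfap2d, Wif1, Notum and Rnf43 were under 10 CPM in the control and entered only through the mutant library, where they had to be high, and Pax2 entered only through the control library, so nothing is read from the counts that hold them. Lhx9, a LIM homeodomain gene of glutamatergic neurons, was at 17.6 CPM in the control and 75.2 CPM in the mutant library (2.04), and Pou4f1, a POU homeodomain gene, at 2.04 and 10.3 CPM (1.90). Tlx3, a homeobox gene of dorsal glutamatergic neurons, was at 70.3 and 11.2 CPM (-2.54), and Pax6, used by granule cells, at 238 and 69.6 CPM (-1.76). Atoh1 was at 41.3 and 24.9 CPM, a difference under 2-fold. Of 8 isthmus and first-segment genes 4 entered. Gbx2, a homeobox gene of the anterior hindbrain, was at 2.88 and 24.97 CPM (2.74), Pax2 at 19.2 and 0.696 CPM (-3.57), and En1 and En2 differed by under 2-fold (0.48 and 0.35). Of 7 midbrain genes 3 entered and 2 were higher, Pou4f1 and Tfap2d, the latter at 8.99 and 61.4 CPM (2.64), and Otx2 was at 106 and 79.3 CPM (-0.42). Of the 10 Wnt targets 9 entered and all 9 were higher, Notum at 0.996 and 53.4 CPM (4.77), Rnf43, a receptor-clearing ubiquitin ligase, at 1.64 and 20.1 CPM (3.00) and Lef1 at 21.8 and 166 CPM (2.87).

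The genes whose level over the clusters was most like a factor's were sought by Pearson r of log2(CPM + 1) over 55 cluster-by-library profiles with at least 50 cells, which share 2 libraries and their free RNA and so carry no test. For Neurog2 they were Dkk1 (r 0.78), a secreted Wnt inhibitor, Fstl4 (0.76) and Gad1 (0.76), the enzyme of GABA synthesis. For Olig3 they were Nkd1 (0.73), Zar1 (0.72) and Cbln4 (0.69). For Shox2 they were Lhx9 (0.87), Pou3f1 (0.84) and Pou4f1 (0.84), and for Foxb1 Sox21 (0.92), a Sox gene of neural progenitors, Gbx2 (0.84) and Cdo1 (0.81). For Neurog1 they were Klhl35 (0.69), Tfap2a (0.65) and Tfap2b (0.65). Among the factors Neurog2 and Shox2 were the most alike (0.73) and Olig3 and Neurog1 the least (0.11). The r with Wif1 was 0.74 for Neurog2, 0.67 for Foxb1, 0.64 for Shox2, 0.58 for Olig3 and -0.01 for Neurog1.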

How the data were processed

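Droplet single-cell RNA sequencing was deposited by the authors as filtered matrices of raw UMI counts, 1 per genotype, made with Cell Ranger 7.0.1 on mm10 per the submitters' processing notes and file headers. The strand setting and the use of intron reads are not given in these sources.

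Cells with at least 1000 UMIs, 500 genes and at most 10% mitochondrial UMIs were kept, and Scrublet calls (expected rate 16%) removed 1019 control (6.06%) and 898 mutant (5.45%) cells as doublets. The kept cells held 172691552 and 168116590 UMIs. Counts scaled to 10000 UMIs per cell were clustered with scanpy 1.11.5 (2000 variable genes, 30 principal components, 15 neighbours, Leiden resolution 1), with 996 genes left out, among them 69 of the lists, and without integration of the libraries. A cluster was called X-like where at least 3 markers and 50% of a class's markers were enriched by log2 of 1 or more in at least 10% of its cells. It stayed unnamed where its 10 leading genes held as many markers of another class, a tie rule set after the data were seen; markers of both classes counted for both.

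Levels are CPM of all UMIs of the kept cells, and ratios compare CPM; log2 ratios use CPM plus a pseudocount of 1. Shares use cells thinned to 3000 UMIs. Intervals are 95% and exact (scipy 1.17.1); a count of 0 is given with the limit of 3 counts. With 1 pooled library per genotype no test was made. The ratio and thinning steps were tested on simulated data. Named genes were the 5 factors, Wif1, Lef1, the 4 listed genes per list with the largest log2 ratio, and the 3 genes most like each factor among those at 5 CPM or more; other genes that describe a cluster or a list were chosen after their values were seen. The factors and lists were chosen with earlier results of these data known. Alternatives covered the thinning depth, the CPM minimum, the fold, the scaling, the clustering and doublets.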

Additional observations from a re-analysis of the deposited data

Results flagged for a closer look

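Foxb1 differed in direction between 2 clusters shared by the libraries. In cluster 9, neural progenitor- or astroglia-like, it was at 16.9 CPM in the control and 2.44 CPM in the mutant library, a ratio of 0.144 (0.0522 to 0.321) from 161 and 6 UMIs. In cluster 23, an unnamed cluster led by Snhg11, Pnoc and Gad2, it was at 1.60 and 19.7 CPM, a ratio of 12.3 (4.75 to 45.5) from 4 and 265 UMIs. Cluster 9 was the only one of the 24 shared clusters whose Foxb1 interval lay below 1, while 13 lay above it. Both clusters also differed in other genes between the libraries, with Otx2 in cluster 9 at 22.6 CPM in the control and 102 CPM in the mutant library, and in cluster 23 the 12 Hox genes together at 252 and 24.9 CPM and Fstl4 at 44.5 and 788 CPM, so a cluster number may stand for different cells in them. The difference between the clusters was not tested, since each library is 1 pool.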

How the results depend on the processing

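With 1 pooled library per genotype no replicate could be left out. No paired analysis was possible because each genotype has 1 library. Of 134 alternative values with a counting interval 97 stayed within it, and of 24 counts of listed genes 21 stayed within 1.5 times. Of the alternatives 3 were chosen after seeing the data. Without the mutant-dominated clusters the whole-library ratios were 3.64 for Olig3, 3.77 for Neurog2, 7.13 for Shox2 and 1.64 for Foxb1. In the mutant-dominated clusters alone the Wif1 share in positive over negative cells was 1.14 for Olig3, 1.51 for Neurog2, 1.30 for Foxb1 and 0.797 for Shox2, which reversed from 1.10, and the Lef1 share 1.07, 1.39, 1.48 and, for Shox2, 0.756. Without non-neural classes the Wif1 ratio was 1.99 for Neurog2 and 1.004 for Shox2.

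The ratio of detection shares became 4.32 for Olig3 and 3.92 for Foxb1 at 6000 UMIs per cell, 8.08 for Neurog2 at 1500, and 11.0 for Olig3 and 5.50 for Foxb1 with at least 2 UMIs and no thinning. At 1500 UMIs the Lef1 ratio was 1.61 for Neurog2 and 0.928 for Shox2, and at 6000 the Wif1 ratio was 1.21 for Shox2 and the Lef1 ratio 1.64 for Foxb1. Among cells with a factor a Hox UMI was found in 4.71% of the control and 1.76% of the mutant ones at 1500 UMIs, and in 12.2% and 4.49% at 6000.

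Clustering moved the control shares. At resolution 2 the cluster matched to 15 held 21.2% of Olig3, that matched to 13 held 15.5% of Neurog1 and 11.6% of Neurog2, and that matched to 1 held 51.3% of Foxb1. With the control clustered alone the values were 17% for Neurog1, 11.7% for Neurog2, 72.8% for Shox2 and 60.0% for Foxb1. Cluster 13 was split in both, and the leading neurogenin cluster became PTF1A-lineage GABAergic progenitor-like, with 402 and 417 control cells and 58.3% and 57.9% of Neurog2. Shox2 in the match of cluster 17 was 73.7% at resolution 0.5 and 54.5% with doublets kept. At 1.5-fold 8 rhombic lip genes were lower; without a CPM minimum 4 Hox and 2 isthmus genes were lower. The cause of these moves was not tested. Scaling by the median of ratios shifted log2 values by 0.03 and changed no direction of the 5 factors.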
